A study of Mus musculus with 4 samples.

Results

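The endothelial identity genes Cdh5, Pecam1, Tek, Tie1, Eng and Vwf were examined in SVEC cells, an established mouse endothelial line, after treatment with lipopolysaccharide (LPS), which Gram-negative bacteria carry in their outer membrane. They were found by gene symbol in the array's probe annotation, among spots that carry 1 symbol. Of the 6 genes, 5 were measured, by 12 spots of 6 oligonucleotides, out of 24344 such spots of 12131 oligonucleotides for 11138 genes. Cdh5 had 2 oligonucleotides and the others 1 each, every oligonucleotide with 2 spots; no spot used here carried the symbol Vwf, so von Willebrand factor was not analysed here. The groups were SVEC cells with LPS for 24 h and SVEC cells with LPS for 4 h, each hybridised together with control RNA. The labels call that RNA only control and do not describe how its cells were handled. The LPS dose was 50 ng/ml where given, for 3 of 4 arrays; no genotype, culture number or passage is given. RNA was amplified, and each time had 2 arrays, one with LPS-treated RNA in the dye Cy5, called the Cy5 array here, and a dye reversal with that RNA in Cy3, called the Cy3 array. The labels mention no separate cultures, so a time point is 1 RNA pair, and an SD given here is the spread between the 2 dye orientations.

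Endothelial cells are recognised by a small set of surface proteins that build and run the vessel wall. VE-cadherin, the product of Cdh5, holds neighbouring cells together at adherens junctions, and Pecam1 (CD31) is an immunoglobulin-family adhesion protein of the same contacts. Tek (Tie2) is the receptor tyrosine kinase for angiopoietins, Tie1 is its related co-receptor, and Eng (endoglin) is a co-receptor for ligands of the BMP and TGF-beta family. Von Willebrand factor is the platelet-binding protein that endothelial cells store in Weibel-Palade bodies. In inflamed vessels LPS loosens junctions and changes which adhesion proteins are displayed, so a ratio for these genes addresses whether the transcripts that define the cell type are kept.

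Values are log2 ratios of LPS over control, each array centred on its median spot. No source states which dye is on top of the ratio; that it is Cy5 is likely from the dyes in the labels, and all signs given here would turn if it were Cy3. As deposited, paired arrays correlated below 0 across all spots (-0.042 at 24 h, -0.23 at 4 h), and with the Cy3 array turned in sign they correlated at 0.10 at 24 h and 0.47 at 4 h across oligonucleotides, which are not independent replicates. Spot intensities were not used here, so whether these 5 transcripts were present at all in SVEC cells could not be checked, and a spot with no signal in either dye could also lie near 0. Fewer expressing cells and less RNA per cell cannot be told apart. Because LPS and control RNA of a time were read once in each orientation, neither time has a test of its own, and an oligonucleotide met the 2-fold rule where the mean was at least 1 in size and each array at least 1.5-fold the same way.

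After 24 h with LPS, 0 of 6 member oligonucleotides met the 2-fold rule, where 2.75% of all oligonucleotides did, 1.80% higher and 0.948% lower. Their means ran from -0.25 for Eng to 0.18 for Pecam1, with a median of -0.047 against 0.019 over all oligonucleotides. After 4 h, 1 of 6 met it, Cdh5 oligonucleotide 2, which was lower in LPS-treated cells; 5.83% of all oligonucleotides were lower and 14.7% met the rule in either direction. The other 5 oligonucleotides had 4 h means between -0.57 and 0.27. All 6 at 24 h and 5 of 6 at 4 h had means under 1.5-fold, as did 79.6% and 64.6% of all oligonucleotides, so means this small were the usual case on these arrays. The largest mean fold among the 5 oligonucleotides other than Cdh5 oligonucleotide 2 was 1.19 at 24 h, for Eng, and 1.49 at 4 h, for Tie1.

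**Figure D1:**
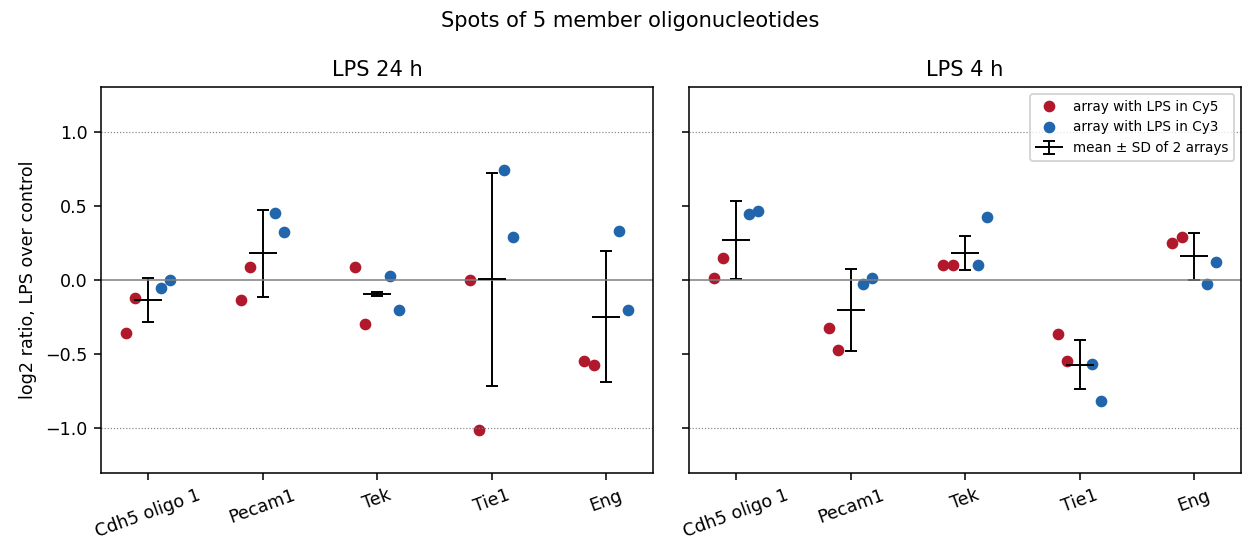
Log2 ratio of LPS over control (vertical axis) for each of the 2 spots of 5 member oligonucleotides at 24 h (left) and 4 h (right). Red points are from the Cy5 array, blue points from the Cy3 array, black marks are the mean ± SD of the 2 arrays, and dotted lines mark 2-fold; 1 of 20 spot readings at 24 h and 0 of 20 at 4 h reached 2-fold.

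Cdh5 was measured by 2 oligonucleotides, and at 24 h both lay near 0. Cdh5 oligonucleotide 1 (spots 15527 and 15528) read -0.36 and -0.12 on the Cy5 array and -0.057 and exactly 0 on the Cy3 array. Cdh5 oligonucleotide 2 (spots 18235 and 18236) read -0.25 and 0.057 on the Cy5 array and 0.11 and 0.15 on the Cy3 array. Their means were -0.13 ± 0.15 and 0.017 ± 0.16 (SD, 2 arrays), a gap of 0.15, which was smaller than that of 79.8% of genes with several oligonucleotides.

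At 4 h the Cdh5 oligonucleotides gave opposite pictures. Cdh5 oligonucleotide 1 read 0.014 and 0.15 on the Cy5 array and 0.44 and 0.46 on the Cy3 array. Cdh5 oligonucleotide 2 read -9.96 and -10.09 on the Cy5 array and -4.40 and -4.42 on the Cy3 array. Oligonucleotide 1 was thus at or slightly above 0 on all 4 readings and oligonucleotide 2 far below 0 on all 4, and the ranges did not overlap. The means were 0.27 ± 0.26 and -7.21 ± 3.97 (SD, 2 arrays). For oligonucleotide 2 the 24 h minus 4 h difference was 7.23.

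The value of Cdh5 oligonucleotide 2 was the extreme of the 4 h data. Its 4 h mean was the lowest of all 12131 oligonucleotides, below the next lowest, one for Ndel1, at -6.56. It corresponds to 148-fold lower on average, with 1039-fold on one array and 21.2-fold on the other. On the Cy3 array, 26 oligonucleotides were at or below its value, a count that includes Cdh5 oligonucleotide 2 itself. The spots of the pair differed by no more than 0.13 on either 4 h array, so the printed copies of the oligonucleotide gave the same reading. The 20 spots numbered next to it lay between -0.85 and 1.38 on the Cy5 array and between -1.08 and 1.54 on the Cy3 array. The low reading thus did not extend to spots of adjoining number, and where those lie on the array was not checked. Among the 929 genes with more than 1 oligonucleotide, the gap of 7.48 between the Cdh5 oligonucleotides was the widest at 4 h; the next was 5.14, for Ins2, and the median gap was 0.75. Averaged over its 4 spots Cdh5 would read -3.47 ± 2.12 (SD, 2 arrays), a value that neither oligonucleotide shows. Which transcript or splice form each oligonucleotide binds was not tested.

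**Figure D2:**
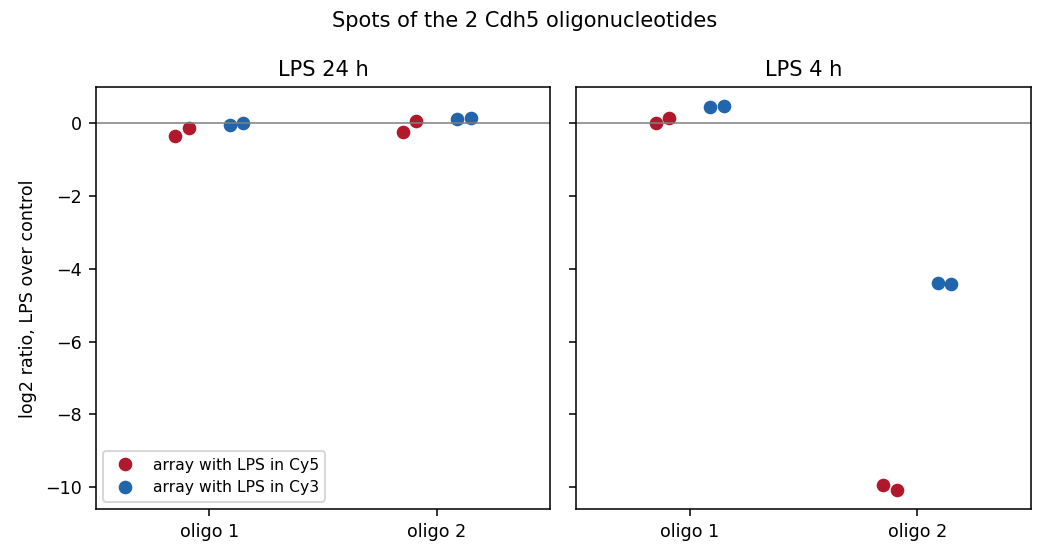
Log2 ratio of LPS over control (vertical axis) for each spot of the 2 Cdh5 oligonucleotides at 24 h (left) and 4 h (right), red for the Cy5 array and blue for the Cy3 array. All points lie near 0 except the 4 of oligonucleotide 2 at 4 h, at -9.96 and -10.09 on one array and -4.40 and -4.42 on the other.

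Pecam1, the other junction protein gene, stayed close to the array median. At 24 h its spots (16089 and 16090) read -0.14 and 0.084 on the Cy5 array and 0.45 and 0.32 on the Cy3 array, a mean of 0.18 ± 0.29 (SD, 2 arrays). At 4 h they read -0.32 and -0.48 on the Cy5 array and -0.029 and 0.014 on the Cy3 array, a mean of -0.20 ± 0.28 (SD, 2 arrays). The dye orientations differed by more than the means did from 0, and the arrays of the times overlapped.

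Tie1 and Tek are the receptor pair of the angiopoietin pathway, and at 24 h the Tie1 arrays had opposite signs. The Tie1 spots (25895 and 25896) read exactly 0 and -1.01 on the Cy5 array and 0.74 and 0.29 on the Cy3 array, so the arrays stood at -0.51 and 0.51 and their mean at 0.0031 ± 0.72 (SD, 2 arrays). With exact zeros as not measured, the Tie1 mean at 24 h was -0.24. The Tie1 SD was the widest of the 6 at 24 h, and the 2 spots of the Cy5 array were 1.01 apart, against a median of 0.25 over 12092 spot pairs. Tek (spots 15147 and 15148) read 0.084 and -0.30 on the Cy5 array and 0.029 and -0.20 on the Cy3 array at 24 h, a mean of -0.097 ± 0.015 (SD, 2 arrays). For Tek the spread between spots was larger than the spread between arrays.

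At 4 h Tek and Tie1 stood on opposite sides of 0, neither reaching the 2-fold rule. Tie1 read -0.37 and -0.55 on the Cy5 array and -0.57 and -0.82 on the Cy3 array, a mean of -0.57 ± 0.17 (SD, 2 arrays). Tek read 0.098 and 0.098 on the Cy5 array and 0.098 and 0.42 on the Cy3 array, a mean of 0.18 ± 0.11 (SD, 2 arrays). Tie1 was below 0 on all 4 readings and Tek above 0 on all 4. The Tie1 mean was at the 15.6th percentile of all oligonucleotides and the Tek mean at the 63.5th, both well inside the middle 95% of means at that time, -1.79 to 2.47.

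Eng, the co-receptor for BMP ligands, was the lowest member at 24 h without reaching the rule. Its spots (25835 and 25836) read -0.55 and -0.58 on the Cy5 array and 0.33 and -0.20 on the Cy3 array, a mean of -0.25 ± 0.44 (SD, 2 arrays). At 4 h they read 0.25 and 0.29 on the Cy5 array and -0.029 and 0.12 on the Cy3 array, a mean of 0.16 ± 0.16 (SD, 2 arrays). The 24 h mean was smaller than its spread between arrays.

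**Figure D3:**
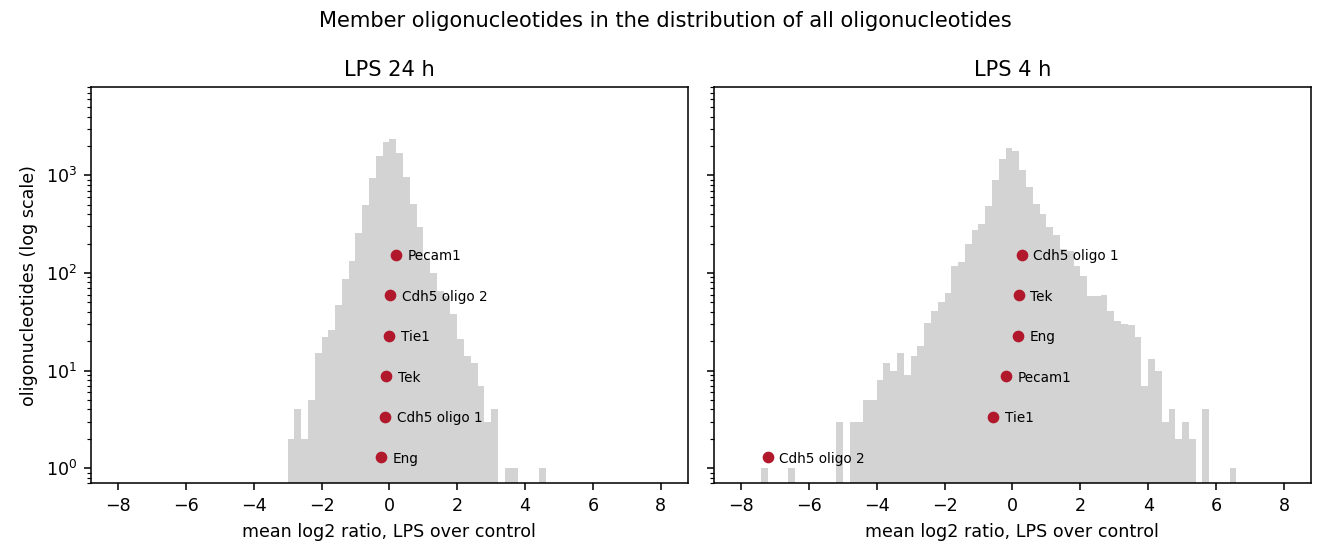
Number of oligonucleotides (vertical log axis) by mean log2 ratio of LPS over control (horizontal axis, bins of 0.2) at 24 h (left) and 4 h (right), with the 6 member oligonucleotides as red points at their means; the height of a point has no meaning. At 24 h all 6 lie between -0.25 and 0.18, and at 4 h Cdh5 oligonucleotide 2 lies at -7.21, apart from the other 5.

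At 24 h the sign differed between the dye orientations for 4 of 6 member oligonucleotides. All 6 member oligonucleotides were below 0 on the Cy5 array, and 4 of 6 were above 0 on the Cy3 array, so 2 of 6 had 1 sign on both arrays, against 57.3% of all oligonucleotides. At 4 h all 6 had 1 sign on both arrays, 3 above and 3 below 0, against 67.2% of all oligonucleotides. The Cy5 array at 24 h was lower than the reversed array for all 6 members and for 54.6% of all oligonucleotides. Apart from Cdh5 oligonucleotide 2, the SD between arrays ran from 0.015 to 0.72 at 24 h and from 0.11 to 0.28 at 4 h, with medians over all oligonucleotides of 0.33 and 0.31.

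Set against each other, the times differed for 1 member by the rule that means be at least 2-fold apart with no overlap of arrays, namely Cdh5 oligonucleotide 2, which was higher at 24 h; 18.8% of all oligonucleotides met it, 8.38% higher at 24 h and 10.4% lower. The arrays of the 2 times did not overlap for 3 of 6 members, Cdh5 oligonucleotide 1, Cdh5 oligonucleotide 2 and Tek, against 47.7% of all oligonucleotides, so separation of this kind was common. The 24 h minus 4 h differences were -0.40 for Cdh5 oligonucleotide 1, -0.28 for Tek, -0.41 for Eng, 0.38 for Pecam1 and 0.58 for Tie1. With each array centred on spots of abundant transcripts in place of its median, 6 of 6 members met the rule for the difference, all higher at 24 h, and the differences of these 5 became 1.78, 1.90, 1.77, 2.56 and 2.76 in the same order, so the signs of Cdh5 oligonucleotide 1, Tek and Eng turned. Without the Cy5 array at 24 h, Tie1 also met it, at 1.09. Whether the times shared control RNA is not known. In the fit over both times (limma on the 2 pair means, Benjamini-Hochberg adjustment over 12131 oligonucleotides), 0% of oligonucleotides passed an adjusted p of 0.05, with 558 at an unadjusted p under 0.05. Cdh5 oligonucleotide 2 had a mean of -3.60 with an SE of 1.92 and an adjusted p of 0.766 by limma. The other 5 lay between -0.29 and 0.067, with SEs of 0.28 to 0.31 and adjusted p values of at least 0.865. The SE and p values of this fit rest on gaps between the times, not on repeats within a time. The mean of -3.60 thus stands for neither time of Cdh5 oligonucleotide 2 (0.017 at 24 h, -7.21 at 4 h). With 2 pair means and 1 residual degree of freedom, a miss does not show that a member was unchanged.

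All values are relative to the array's median spot, which matters at 4 h. Spots of abundant transcripts outside translation had medians of 0.057 on the Cy5 array and 0.13 on the Cy3 array at 24 h, and of 2.73 and 1.82 on the same arrays at 4 h. With each array centred on that list, all 6 members were lower at 4 h, as were 10553 of 12131 oligonucleotides, and 0 of 6 met the rule at 24 h. On that scale the 4 h values of the other 5 oligonucleotides ran from -2.85 for Tie1 to -2.0 for Cdh5 oligonucleotide 1.

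The upstream sequences of Tek and Tie1, the receptor pair of the angiopoietin pathway, are shown side by side. Any link between these sequences and the array values was not tested. Many endothelial genes are driven by ETS-family transcription factors, whose binding core is GGAA. RefSeq windows (build GRCm38.p6) were given for Tek, Tie1 and Eng among the members; shown are the 250 bases before the listed start, 5′ to 3′ on the gene's strand, with GGAA and its reverse complement TTCC in capitals. The Tek window is chr4:94739039-94739288 on the plus strand and the Tie1 window chr4:118489850-118490099 on the minus strand.
Tek: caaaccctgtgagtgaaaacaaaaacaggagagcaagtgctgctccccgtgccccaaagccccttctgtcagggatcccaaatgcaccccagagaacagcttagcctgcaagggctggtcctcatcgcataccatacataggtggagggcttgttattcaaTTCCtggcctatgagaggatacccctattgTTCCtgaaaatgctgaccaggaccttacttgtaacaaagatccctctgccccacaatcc
Tie1: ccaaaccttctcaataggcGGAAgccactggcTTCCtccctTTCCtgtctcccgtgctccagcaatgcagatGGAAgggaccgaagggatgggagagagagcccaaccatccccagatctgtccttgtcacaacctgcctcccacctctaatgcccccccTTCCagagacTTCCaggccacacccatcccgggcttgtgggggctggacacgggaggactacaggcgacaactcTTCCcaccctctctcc
The Tek window held 2 copies of the core on either strand and the Tie1 window 7, and 76.8% and 3.82% of 32841 windows of this length held at least as many; the median was 3. The Eng window held 3. One copy or more was found in 93.5% of windows. The longer form CCGGAA, which contains the core and was found in 12.03% of windows, and the NF-kB consensus, found in 3.90%, did not occur in the letters of these 3 windows. A match describes letters, not binding, and no array value bears on the factors themselves.

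Other endothelial genes did not meet the rule at 24 h, and single ones did in both directions at 4 h. Of 32 genes listed, 26 were measured by 28 oligonucleotides, with 0 higher and 0 lower at 24 h (median 0.10, against 0.019 over all) and 1 higher and 2 lower at 4 h (median -0.052, against -0.00087). Procr, the endothelial protein C receptor, stood at 0.53 ± 0.046 at 24 h and was higher at 4 h, at 2.21 ± 0.52 (SD, 2 arrays). Plvap, which forms the diaphragms of endothelial pores, stood at -0.41 at 24 h and was lower at 4 h (-1.43 ± 0.69). Ephb4, a receptor of venous endothelium, stood at -0.23 at 24 h and was lower at 4 h (-1.34 ± 0.15). Over all oligonucleotides, the shares meeting the rule at 4 h were 8.85% higher and 5.83% lower. With centring on the abundant transcripts Procr read -0.065 at 4 h, close to 0, so its higher reading was not kept.

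Genes that work with the members were read from lists by role; of all oligonucleotides, 1.80% were higher and 0.948% lower at 24 h, and 8.85% and 5.83% at 4 h. Of 17 oligonucleotides of VE-cadherin junction partners, Ctnnb1, beta-catenin, which binds the tail of VE-cadherin, was higher at 24 h (arrays 0.98 and 1.37, mean 1.18 ± 0.28) with a 4 h mean of 0.025. F11r, a tight junction protein, had a 24 h mean of -0.040 and was higher at 4 h (arrays 3.23 and 1.13, mean 2.18 ± 1.49). With centring on the abundant transcripts F11r stood close to 0 at 4 h (-0.094). In the angiopoietin and Tie list, 0 of 14 met the rule at 24 h and 2 were lower at 4 h, the angiopoietin-like gene Angptl1 (-1.81 ± 0.84) and the adaptor gene Grb7 (-1.19 ± 0.26). The median of that list was 0.11 at 24 h and -0.21 at 4 h.

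In the endoglin and BMP list, 0 of 23 oligonucleotides met the rule at 24 h, and at 4 h 1 was higher, Id3, a transcriptional target of BMP signals (arrays 2.19 and 0.76, mean 1.47 ± 1.01). Its list medians were 0.088 at 24 h and 0.11 at 4 h. Among 14 oligonucleotides for Weibel-Palade bodies and Vwf handling, 0 met the rule at 24 h; at 4 h the vesicle GTPase gene Rab3d was lower (-2.29 ± 0.29) and the membrane fusion gene Stx4a higher (1.40 ± 0.70). With centring on the abundant transcripts Id3 and Stx4a turned in sign at 4 h (-0.80 and -0.87). None of 9 oligonucleotides of Pecam1 signalling partners met it at either time, with Cd177, a neutrophil ligand of Pecam1, at 1.03 ± 0.93 at 24 h and 1.15 ± 2.14 at 4 h. The kinase gene Yes1 stood at 0.51 and 0.88, and the phosphatase gene Ptpn11, whose product docks on the Pecam1 tail, at -0.73 and -0.014 on one of its oligonucleotides, at 24 h and 4 h in that order.

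Among proteases that act on endothelial surface proteins and their inhibitors, those that met the rule were higher. Of 12 oligonucleotides for 10 genes, 3 were higher and 0 lower at 24 h (median 0.020), and 7 were higher and 0 lower at 4 h (median 1.21), where 1.80% of all oligonucleotides were higher at 24 h and 8.85% at 4 h. The sheddase genes Adam9 (1.16 ± 0.33 at 24 h, 1.54 ± 0.23 at 4 h), Adam15 (1.78 ± 1.14 at 4 h) and Adam17 (1.18 ± 0.41 at 4 h) and the membrane protease gene Mmp14 (1.25 ± 0.78 at 4 h) were among them. The inhibitor gene Timp1 was higher at both times on both of its oligonucleotides, at 3.72 and 2.70 at 24 h and 1.93 and 1.23 at 4 h, and Timp3 was higher at 4 h (3.31 ± 1.21). Of 14 oligonucleotides of genes that mark a change toward mesenchyme, 0 met the rule at 24 h and 5 were higher at 4 h, against the same 8.85% over all: Col3a1 (3.05 ± 2.25), Vim (1.90 ± 0.56), S100a4 (1.75 ± 0.86), Acta2 (1.48 ± 0.67) and Col1a1 (1.20 ± 0.17). The 4 h medians of both lists, 1.21 and 0.45, lie below the 2.08 of the abundant oligonucleotides. With centring on those, all genes of both lists named here turned in sign at 4 h except Timp3 (1.04) and Col3a1 (0.77), and the part of transcript abundance was not tested.

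**Figure D4:**
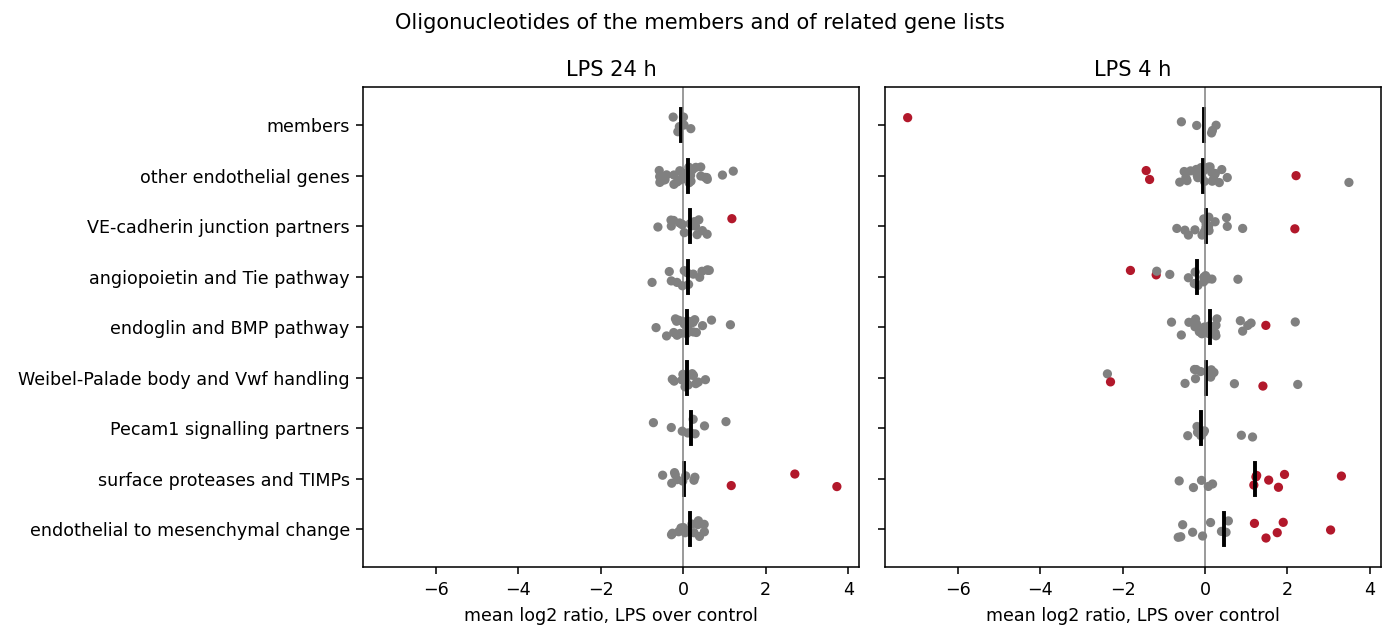
Mean log2 ratio of LPS over control (horizontal axis) of each oligonucleotide of the members and of 8 related gene lists (rows) at 24 h (left) and 4 h (right). Red points met the 2-fold rule, grey points did not, and black bars are list medians; at 24 h the members cluster between -0.25 and 0.18, while at 4 h the list of surface proteases and inhibitors has its median at 1.21.

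Markers of other cell types were counted the same way. Of all oligonucleotides, 1.80% were higher and 0.948% lower at 24 h, and 8.85% and 5.83% at 4 h. At 24 h, 0 of 8 lymphatic endothelial, 1 of 11 leukocyte (Coro1a, 1.05 ± 0.15), 0 of 6 platelet, 1 of 12 mural and fibroblast (Pdgfra, 1.14 ± 0.54) and 0 of 8 epithelial oligonucleotides met the rule, both of these higher. At 4 h the lower ones were Ccl21a (-1.77 ± 0.72 on 1 oligonucleotide), Lum (-1.40 ± 0.58) and Cldn3 (-1.66 ± 0.56), and the higher ones 5 of 12 mural and fibroblast oligonucleotides, all of which turned in sign with centring on the abundant transcripts. Their list medians lay between -0.11 and 0.26 at 24 h and between -0.22 and 0.028 at 4 h. Ratios give no levels, so which cell types were present was not tested.

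Genes with the most similar pattern were found by the root mean square difference over the 4 arrays. The nearest to Cdh5 oligonucleotide 1 were Bmpr1a (0.029), Stxbp5 (0.054) and Sgpp1 (0.062). Klf1 (0.035), Wnt8a (0.054) and Tnnc1 (0.062) were nearest to Pecam1. For Tek they were Kcnj3 (0.027), Chka (0.037) and Mageb16 (0.055), and for Tie1 Cfl1 (0.092), Ifngr1 (0.096) and 2810408A11Rik (0.13). Gabra4 (0.048), Ttc39c (0.067) and Acbd6 (0.070) were nearest to Eng. Between 87 oligonucleotides, for Tie1, and 1071, for Tek, lay within 0.25 of these members, so such likeness was common near 0. None lay within 0.25 of Cdh5 oligonucleotide 2, whose nearest were Ndel1 (1.33), Med26 (1.60) and Tymp (1.78).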

How the data were processed

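Arrays of mouse SVEC cells with LPS for 24 h and 4 h were analysed from the deposited value table. The authors deposited log2 ratios of 2 dyes, made from amplified RNA hybridised to long oligonucleotide arrays, per the labels; the scale was taken from the values, and each column has a median of 0. The scanner and the background and normalization steps are unnamed in the sources used here. Of 32448 spots, 24344 had 1 gene symbol in the platform annotation, 98 had several and 8006 were not named; 98.9% of named spots were found in RefSeq by gene identifier. Each array was centred on its median, reversed arrays were turned in sign, spots with the same symbol and annotation record were averaged as 1 oligonucleotide, and arrays of a time were averaged. The number of arrays limits the precision. limma 3.58.1 in R 4.3.3 (lmFit and eBayes, intercept only) was run on the 2 pair means. It was also run on data simulated with a common SD for all oligonucleotides, which checked the code and not its error rate on these data. Members and gene lists were chosen with earlier results of these data known. Named genes are all members, list genes past the 2-fold rule or else the 3 largest of a list, and the 3 nearest genes by pattern. Alternatives were other centring, scaling, quantile normalization, exact zeros as not measured, gene averages, other fold rules, other fits and leaving out each array.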

Additional observations from a re-analysis of the deposited data

Results flagged for a closer look

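For 2 member oligonucleotides both arrays lay on one side of 0 at 24 h and both on the other at 4 h. Cdh5 oligonucleotide 1 stood at -0.24 and -0.028 at 24 h and at 0.082 and 0.45 at 4 h, a 24 h minus 4 h difference of -0.40. Tek stood at -0.11 and -0.087 at 24 h and at 0.098 and 0.26 at 4 h, a difference of -0.28. At 24 h Tek spot 15147 was above 0 on both arrays (0.084 and 0.029) and spot 15148 below 0 on both (-0.30 and -0.20). The differences were not tested, since each time is 1 RNA pair, and 14.7% of all oligonucleotides showed such an exchange of sign. It depends on the centring: with each array centred on abundant transcripts, Cdh5 oligonucleotide 1 stood at -0.23 at 24 h and -2.0 at 4 h and Tek at -0.19 and -2.09, so means at both times were below 0 and the differences turned to 1.78 and 1.90.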

How the results depend on the processing

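The count of members meeting the 2-fold rule stayed at 0 at 24 h under all alternatives run and at 1 at 4 h under all but centring on abundant transcripts, which gave 6. That centring gave 10637 oligonucleotides at 4 h (84 higher and 10553 lower, against 1074 and 707) and 10481 for the difference between the times (2279 otherwise). At 24 h the count of 333 became 1950 with a 1.5-fold mean of one sign, 650 with quantile normalization, 48 with a 4-fold mean, 807 with the mean alone and 1227 to 1539 without one array; at 4 h the count of 1781 became 3655 with the 1.5-fold mean, 615 with a 4-fold mean and 2695 to 2743 without one array. At 24 h the split of 218 higher and 115 lower became 848 and 379 without the Cy5 array and 586 and 953 without the Cy3 array. The fit over both times called 0 under all alternatives run. The count of members whose times differed by the rule, 1 otherwise, became 6 with centring on abundant transcripts and 2 without the Cy5 array at 24 h. The 1 member value that met the rule with the main processing, Cdh5 oligonucleotide 2 at 4 h, kept its sign throughout. With centring on abundant transcripts, 4 h values of other members changed sign and then met the rule. These were Cdh5 oligonucleotide 1 (0.27 to -2.0), Tek (0.18 to -2.09) and Eng (0.16 to -2.11). Without one array, the 4 h value of Cdh5 oligonucleotide 2 ran from -10.02 to -4.41. Averaging all Cdh5 spots gave -3.47. Arrays of 24 h were not paired with arrays of 4 h, because the replicate numbers only follow the order of the records. Missing intensities limit what is known of faint spots.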

Other observations

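How often oligonucleotides of 1 gene gave the same call was counted for genes with several. At 24 h, 47 such oligonucleotides were higher and 10 of them (21.3%) had another oligonucleotide of the gene that was also higher, while 30 were lower and 0 had one that was also lower. At 4 h, 179 were higher and 48 (26.8%) had another that was higher, while 108 were lower and 10 (9.26%) had another that was lower. For 8 of the 179 and 8 of the 108 another oligonucleotide of the gene met the rule in the opposite direction. The single lower reading of Cdh5 at 4 h belongs to the 98 lower ones without such a partner.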
